A study of Mus musculus with 14 samples.

Results

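Collagens and laminins are structural proteins of the extracellular matrix, and integrins are the main receptors through which cells hold on to it. The genes described here were chosen by symbol. Of the 24340 gene symbols listed for each library, 81 were those of a collagen alpha chain (44 genes), a laminin chain (11), an integrin alpha subunit (18) or an integrin beta subunit (8). Of these 81, 60 reached 1 RPKM (a read density scaled to transcript length and library size) in at least 2 of the 14 libraries and were tested: 31 collagens, 10 laminins, 13 alpha subunits and 6 beta subunits. The other 21 stayed below this level and were not tested, and the highest value of any of them in any library was 1.25 RPKM. They include the basement membrane chains Col4a3 and Col4a6, the laminin chain Lamb3 and the leukocyte subunit Itgam.

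Collagen chains wind together into helices. Types I and III form the fibres of connective tissue, and type IV forms the sheet of basement membranes. Laminins are built from an alpha, a beta and a gamma chain and join the type IV sheet. Each integrin pairs an alpha with a beta subunit, and the beta 1 subunit serves most receptors for collagen and laminin. In the testis, the basement membrane of the seminiferous tubule is laid down by Sertoli cells within and peritubular cells outside, and spermatogonia rest on it. The alpha 6 and beta 1 subunits are surface markers used to enrich spermatogonial stem cells.

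RNA of male germ cells from C57BL/6 testes was sequenced at postnatal day 3 (P3) and day 7 (P7), in 7 groups of 2 libraries. P3 WT was wild type. P3 Ctrl carried Vasa-Cre, a Cre driver active in germ cells, with the genotype Jmjd1a-/+; Jmjd1b-/+. P3 Jmjd1aKO was Vasa-Cre; Jmjd1a-/-; Jmjd1b-/+, and P3 Jmjd1bKO was Vasa-Cre; Jmjd1a-/+; Jmjd1b-/-. P3 DKO was Vasa-Cre; Jmjd1a-/-; Jmjd1b-/-, P7 Ctrl had the genotype of P3 Ctrl and P7 DKO that of P3 DKO. Every group except P3 WT thus carried Cre and lacked at least 1 copy of each gene. Jmjd1a and Jmjd1b, listed as Kdm3a and Kdm3b, encode demethylases of lysine 9 of histone H3. No cell sort is named in the labels, nor whether both replicates come from different animals, and the spread behind each p-value may therefore be technical.

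Depth, estimated from the steps between RPKM values, ran from 13.4 to 49.5 M fragments per library, lowest in P3 WT and highest in P3 DKO. Kdm3a stood at 28.4 and 26.3 RPKM in P3 Ctrl, at 9.83 and 9.84 in P3 Jmjd1aKO, at 12.1 and 14.3 in P3 DKO and at 8.97 and 7.59 in P7 DKO. Kdm3b stood at 10.2 and 13.5 RPKM in P3 Ctrl, at 4.72 and 7.51 in P3 Jmjd1bKO, at 4.26 and 4.48 in P3 DKO and at 6.49 and 6.73 in P7 DKO. A list of 12 germ cell markers summed to 1802 to 2578 RPKM, with 11 or 12 markers at 1 RPKM or more in every library. Replicate 2 of P3 Jmjd1aKO and replicate 2 of P3 Jmjd1bKO stood apart: 20 Sertoli cell markers summed to 1269 and 1513 RPKM there, against 209 to 386 RPKM in the other 12 libraries. Amh, the hormone of immature Sertoli cells, was at 108 and 149.6 RPKM in that pair, and no Sertoli marker was at 0 in any library. In the same pair, 15 peritubular and stromal markers summed to 51.4 and 48.8 RPKM against 5.59 to 35.8 elsewhere. Dcn, a proteoglycan gene of fibroblasts, stood at 8.18 and 8.94 RPKM there and at most at 0.629 RPKM in any other library. Of the 15 stromal markers, 11 were higher in replicate 2 of both single knockouts and 4 lower, among them Des. Of the 20 Sertoli markers 18 were higher there and 2 lower, and of 10 Leydig markers 9 were higher and 1 lower. The Leydig list summed to 61.3 and 62.1 RPKM in the pair against 24.4 to 41.7 elsewhere. Of 12 leukocyte markers 6 were higher and 5 lower, and of 10 endothelial markers 0 and 8. These 2 libraries are called the Sertoli-rich pair below, although most stromal and Leydig markers were higher there too. Which cells the genes high there come from was not tested. The counts of called members are given with and without the pair. In RNA of mixed cells, fewer cells of a type and less RNA per cell cannot be told apart.

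Integrin and laminin transcripts were the most abundant of the 60 tested genes, on the RPKM scale, which allows comparison between genes. Itgb1, the common beta subunit, had the highest level, from 75.8 to 107 RPKM over the 14 libraries. Lamb1, a beta chain of many laminins, followed with 25.5 to 96.1 RPKM, and Itgb5, which pairs with the alpha v subunit, with 15 to 67.9 RPKM. The laminin receptor subunit Itga6 ranged from 18.7 to 42.4 RPKM and was the most abundant alpha subunit. By the ratio of highest to lowest level, Itgb1 varied least of these 4 genes and Itgb5 most, with its lowest level in P7 DKO replicate 2. Partner subunits did not match in level: Itgb5 exceeded Itgav, its alpha partner (2.104 to 3.86 RPKM), by 5.28 to 23.6 times. Lamc1, the common gamma chain, lay at 14.3 to 21.5 RPKM, and the level of Lamb1 was 3.22 to 4.8 times that of Lamc1 at P3 and 1.76 to 2.29 times at P7. The most abundant collagens were Col18a1, the source of endostatin, at 3.51 to 43.8 RPKM, the transmembrane collagen Col13a1 at 4.71 to 26.9 RPKM, the fibril collagen Col5a1 at 7.01 to 17.4 RPKM and the basement membrane chain Col4a1 at 2.15 to 29.5 RPKM. Most tested members were low: 40 of the 60 had a mean below 5 RPKM over the 14 libraries.

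**Figure D1:**
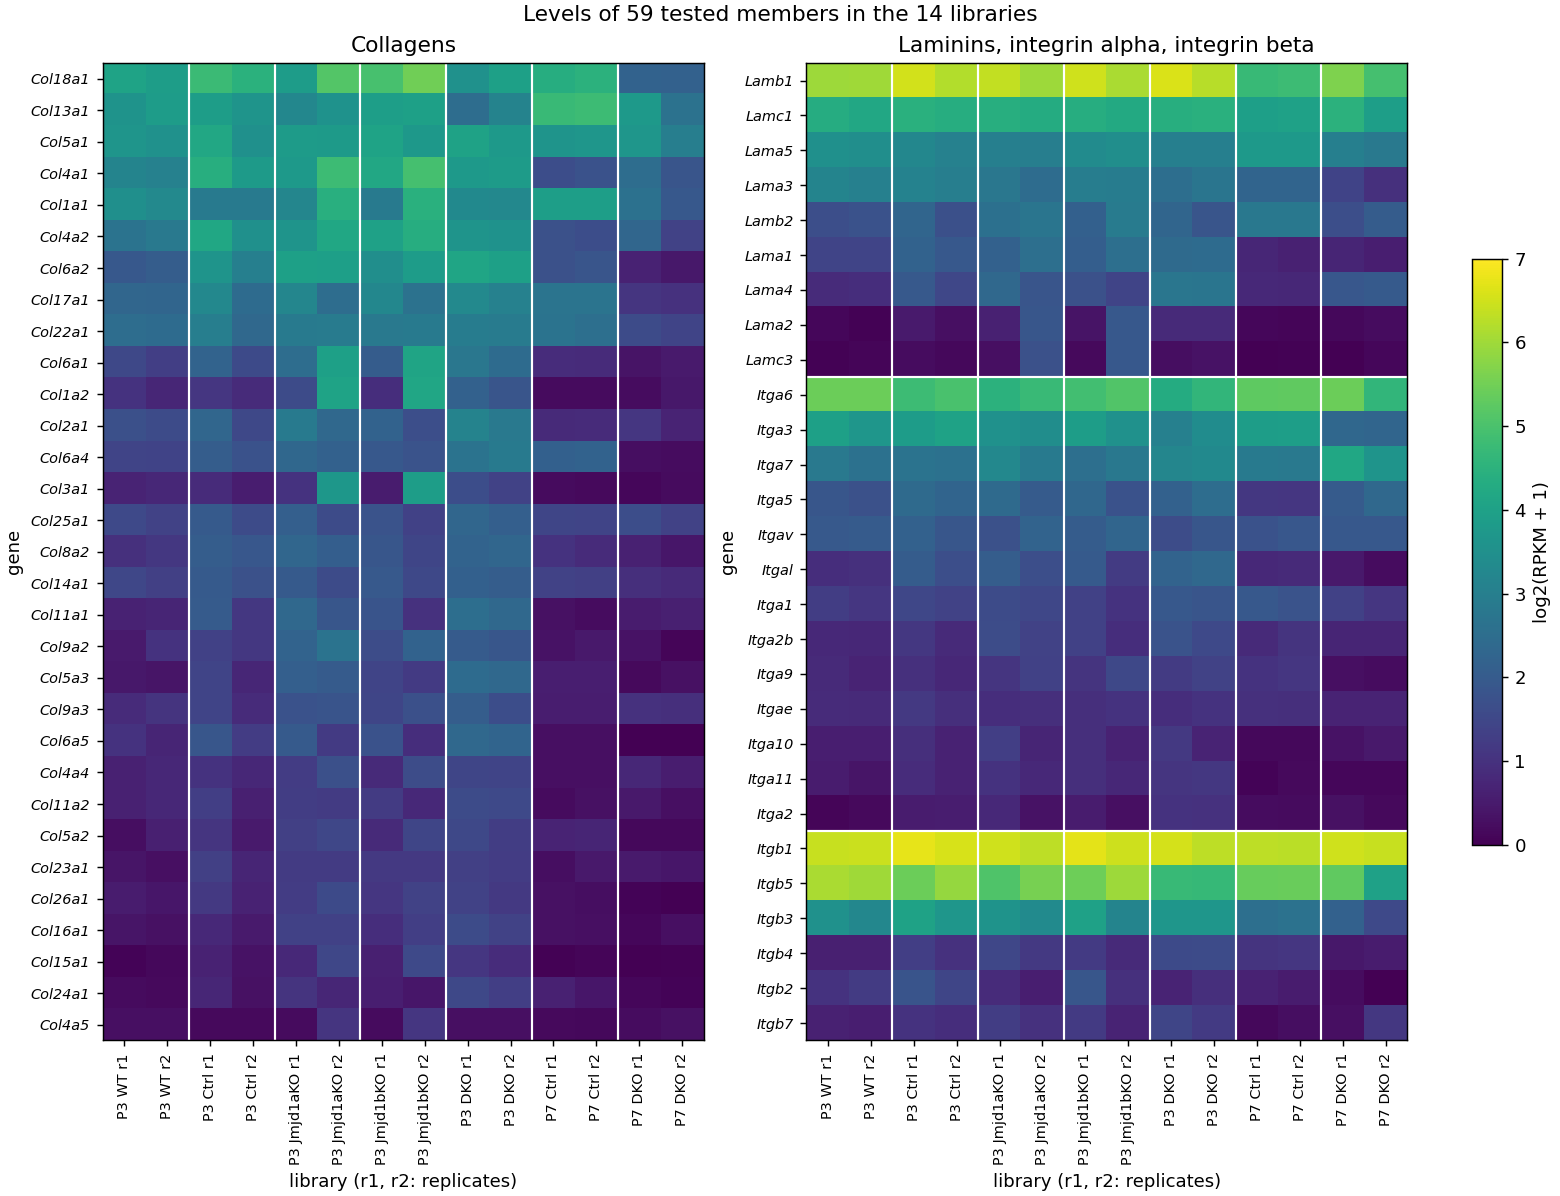
Each row is a tested member (59 of 60 are drawn) and each column a library, ordered by group, and the colour gives log2(RPKM + 1). Itgb1, Lamb1 and Itgb5 are the brightest rows, while Col1a2, Col3a1, Col6a1, Lama2 and Lamc3 are brightest in replicate 2 of the P3 single knockouts.

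A set of 6 members followed the Sertoli-rich pair: Col1a1, Col1a2, Col3a1, Col6a1, Lama2 and Lamc3. By the rule, log2(RPKM + 1) of replicate 2 was at least 1 above replicate 1 in both single knockouts, and both replicate 2 levels were above every other P3 library. The rule took 2.37% of all tested genes, and 6 of 60 members. Its mirror image, lower in the pair, took 0.108% of all tested genes and no member. These values chose the genes and carry no test. Lama2 and Lamc3 reached the filter of 1 RPKM only through the pair, so their place among the 60 rests on the same 2 libraries as the rule.

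Col3a1, the chain of type III collagen (chromosome 1, 45311538 to 45349706, GRCm38), stood at 11.97 and 13.8 RPKM in the pair, against 1.04 and 0.458 in the other replicates of those groups. Its levels were 0.635 and 0.700 RPKM in P3 WT, 0.805 and 0.488 in P3 Ctrl, 2.13 and 1.60 in P3 DKO, 0.157 and 0.135 in P7 Ctrl and 0.0894 and 0.163 in P7 DKO. No other library came near the pair, and the P7 libraries were lowest. Col1a2, the second chain of type I collagen (chromosome 6, 4504814 to 4541544), showed the same order, with 15.8 and 16.6 RPKM in the pair and 2.003 and 0.877 in their partners. Elsewhere it stood at 1.04 and 0.699 RPKM in P3 WT, 1.14 and 0.806 in P3 Ctrl, 3.49 and 2.61 in P3 DKO, 0.153 and 0.161 in P7 Ctrl and 0.186 and 0.379 in P7 DKO. Col1a1, the first chain of type I collagen (chromosome 11, 94936224 to 94953042), was above 2 RPKM in all libraries. It stood at 20.3 and 20.6 RPKM in the pair and at 8.35 and 6.25 in their partners. The other groups held 10.2 and 8.87 RPKM in P3 WT, 6.36 and 6.22 in P3 Ctrl, 8.94 and 8.63 in P3 DKO, 14.1 and 14.3 in P7 Ctrl and 5.10 and 2.83 in P7 DKO.

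The type I chains, which join in 1 protein, had unequal levels outside the pair. The level of Col1a1 was 1.29 and 1.24 times that of Col1a2 in the pair, 2.56 and 3.30 times in P3 DKO, 5.57 and 7.72 times in P3 Ctrl and 92.0 and 88.7 times in P7 Ctrl. In P7 Ctrl, Col1a1 was thus at its highest outside the pair while Col1a2 was at its lowest. The files give 1 value per gene, so which transcripts of Col1a1 were read in P7 Ctrl was not analysed here.

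**Figure D2:**
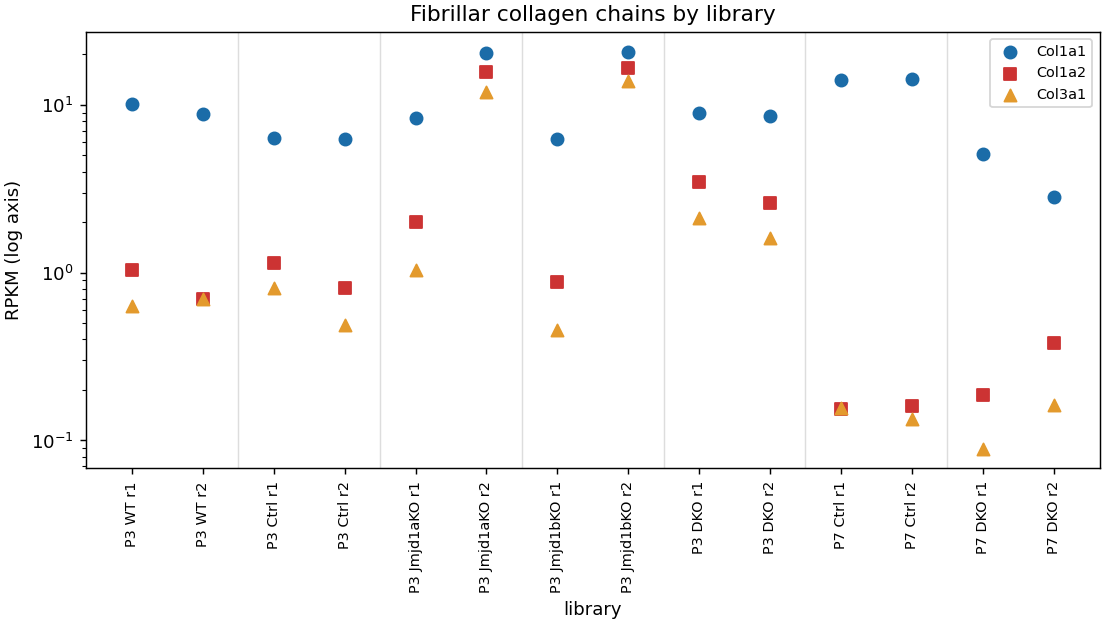
Points give the RPKM of Col1a1, Col1a2 and Col3a1 in each library on a log axis. The 3 chains lie close together in replicate 2 of both single knockouts, and Col1a1 stays high in P7 Ctrl, where Col1a2 and Col3a1 are below 0.2 RPKM.

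The remaining followers are 1 chain of type VI collagen and 2 laminin chains. Col6a1 (chromosome 10, 76708792 to 76726168) stood at 14.7 and 16.1 RPKM in the pair against 4.67 and 3.10 in their partners. Its neighbour and partner chain Col6a2, 85162 bases away on the same strand, did not follow: it stood at 14.8 and 14.6 RPKM in P3 Jmjd1aKO and at 9.90 and 13.6 in P3 Jmjd1bKO. The level of Col6a2 was 0.988 and 0.848 times that of Col6a1 in the pair and 2.77 to 3.64 times in P3 Ctrl, P3 DKO, P7 Ctrl and replicate 1 of the single knockouts. It was 1.54 and 2.19 times in P3 WT and 1.99 and 0.873 times in P7 DKO, so a ratio below 1 also occurred in 1 library outside the pair. Lama2, the alpha chain of muscle and peripheral nerve laminin (chromosome 10, 26980036 to 27619758), reached 2.63 and 2.82 RPKM in the pair against 0.562 and 0.297 in their partners. Lamc3, a rarer gamma chain (chromosome 2, 31887291 to 31946539), reached 2.33 and 2.81 RPKM against 0.213 and 0.140. Outside the pair neither laminin chain exceeded 0.798 RPKM.

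Col15a1, Col4a5, Col4a1 and Col18a1 lay just outside the rule. Their differences between replicates were 0.68 and 0.93 for Col15a1, 0.89 and 0.90 for Col4a5, 1.004 and 0.72 for Col4a1 and 1.26 and 0.53 for Col18a1, on the log2 scale in Jmjd1aKO and Jmjd1bKO. The smallest differences inside it were 1.19 in Jmjd1aKO, for Col1a1, and 1.56 in Jmjd1bKO, for Lama2. Of the 60 members, 27 were higher and 30 lower in replicate 2 of both single knockouts. Col6a5 and Itgb2 were among the lower, Col6a5 with 2.98 and 1.27 RPKM in P3 Jmjd1aKO and 2.37 and 0.892 in P3 Jmjd1bKO.

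**Figure D3:**
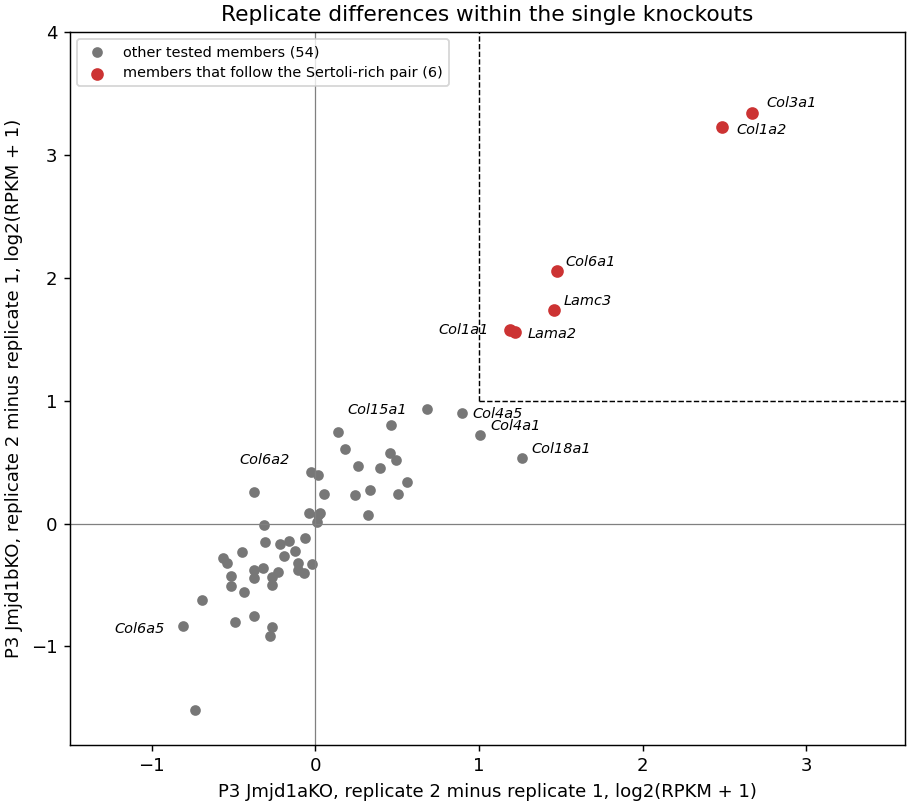
Each point is a tested member, with the difference of replicate 2 from replicate 1 in P3 Jmjd1aKO on the horizontal axis and in P3 Jmjd1bKO on the vertical axis, both in log2(RPKM + 1). The 6 members in the area bounded by dashed lines follow the pair, and Col1a2 and Col3a1 lie above 2 on both axes.

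The windows of 250 bases upstream of a start site, from RefSeq (GRCm38.p6), were available for 58 of the 81 genes, in 64 windows. Below are those of 2 genes that follow the pair and of 2 abundant genes that do not, Itgb1 and Lama5, to show how unlike their promoters are in CG content. They are written 5′ to 3′ on the gene's strand, with CG dinucleotides in capitals, and in Col3a1 the motif TATAAA in capitals. The Lama2 window lies upstream of a RefSeq start that is 2816 bases inside the gene span given above. The windows are chr1:45311288-45311537 (+ strand) for Col3a1, chr10:27616943-27617192 (- strand) for Lama2, chr8:128685404-128685653 (+ strand) for Itgb1 and chr2:180225860-180226109 (- strand) for Lama5.
Col3a1: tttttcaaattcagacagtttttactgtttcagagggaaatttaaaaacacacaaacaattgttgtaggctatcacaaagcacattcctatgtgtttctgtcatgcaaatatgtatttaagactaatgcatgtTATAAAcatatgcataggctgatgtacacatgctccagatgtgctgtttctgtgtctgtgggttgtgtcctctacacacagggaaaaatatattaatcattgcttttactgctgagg
Lama2: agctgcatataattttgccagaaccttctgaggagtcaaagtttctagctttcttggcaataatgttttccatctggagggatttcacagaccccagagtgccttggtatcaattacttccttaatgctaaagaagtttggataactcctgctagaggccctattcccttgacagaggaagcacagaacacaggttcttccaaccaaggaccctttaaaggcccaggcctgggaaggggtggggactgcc
Itgb1: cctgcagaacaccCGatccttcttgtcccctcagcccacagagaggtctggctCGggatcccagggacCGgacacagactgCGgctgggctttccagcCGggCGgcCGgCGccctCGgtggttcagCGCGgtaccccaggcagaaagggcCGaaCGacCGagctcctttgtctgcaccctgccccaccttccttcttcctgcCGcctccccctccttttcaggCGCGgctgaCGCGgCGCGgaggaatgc
Lama5: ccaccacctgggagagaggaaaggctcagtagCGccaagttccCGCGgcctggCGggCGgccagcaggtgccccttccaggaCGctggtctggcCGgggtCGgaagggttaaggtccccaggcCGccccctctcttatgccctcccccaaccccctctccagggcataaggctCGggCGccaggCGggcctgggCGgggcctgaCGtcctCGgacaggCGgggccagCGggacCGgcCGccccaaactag
The windows of Col3a1 and Lama2 hold no CG, those of Itgb1 and Lama5 hold 21 and 19. Over all 32851 mouse windows of this length the median was 6, and 7.87% held none. Of the other followers with a window, Col6a1 held 3 and Col1a2 held 11, so a low count was not shared by all of them. Some members outside the rule also held few, such as Itga2b with 2 and Lamb2 with 3. TATAAA, searched on both strands, was in 12.4% of all windows and in that of Col3a1 alone among the 4 printed above. A match in these letters is a description of the window and not of a factor's binding.

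The comparison of P7 Ctrl with P3 Ctrl asks what changed with age in 1 genotype. Among the largest falls were those of basement membrane chains: on the scale of log2(RPKM + 1), which understates the change of low genes, Col4a1, Col4a2 and Lamb1 fell by 2.39, 2.15 and 1.59. Of 60 members, 21 fell and 2 rose, where 13.4% of all tested genes fell and 9.94% rose (limma, Benjamini-Hochberg adjusted p under 0.05). The falls covered 10 of 31 collagens, 5 of 10 laminins, 3 of 13 alpha and 3 of 6 beta subunits. The median log2 change was -0.47 over the members and -0.01 over all tested genes. Low genes of any kind fell more often. Of all 5297 tested genes with a mean below 5 RPKM, 17.2% fell, with a median log2 change of -0.21. Of the 40 members at that level 13 fell, with a median of -0.55. At 5 RPKM or more, 11.2% of all tested genes fell, with a median of 0.06. There 8 of 20 members fell, with a median of -0.23.

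Col4a1 (chromosome 8, 11198423 to 11312826) and Col4a2 (chromosome 8, 11312805 to 11449287) start head to head on opposite strands and overlap by a few bases, where reads of the 2 genes may not be told apart. Col4a1 stood at 19.9 and 13.2 RPKM in P3 Ctrl and at 2.15 and 2.40 in P7 Ctrl (log2 change -2.39 ± 0.35, adjusted p = 0.00339). Col4a2 stood at 16.9 and 10.5 RPKM in P3 Ctrl and at 2.33 and 2.14 in P7 Ctrl (log2 change -2.15 ± 0.31, adjusted p = 0.00329). The ratio of the chains stayed between 0.926 and 1.60 in all 14 libraries, and P7 was lower than P3 without overlap. P3 WT held 7.99 and 7.48 RPKM of Col4a1, between the ages of the Cre carriers.

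Laminin chains differed in their course. Lamb1 (chromosome 12, 31265234 to 31329644) fell from 90.5 and 72.0 RPKM to 25.5 and 26.7 (log2 change -1.59 ± 0.24, adjusted p = 0.00353), and Lama1, the alpha chain of embryonic basement membranes, from 3.62 and 2.84 to 0.694 and 0.575 RPKM (-1.37 ± 0.19, adjusted p = 0.00317). Lama5, the alpha chain common in mature basement membranes, rose from 8.44 and 7.48 to 12.7 and 12.6 RPKM (0.61 ± 0.11, adjusted p = 0.00694). Lama1 and Lama5 thus changed in opposite directions, and neither pair of libraries overlapped. Lamc1 stood at 20.8 and 19.4 RPKM in P3 Ctrl and at 14.5 and 14.9 in P7 Ctrl, with a log2 change of -0.42 ± 0.16, adjusted p = 0.0735. Lama3, an alpha chain of epithelial laminin, fell from 7.65 and 6.96 to 3.76 and 3.74 RPKM, and Lama4, a chain of vessel walls, from 2.90 and 1.80 to 0.762 and 0.719 RPKM (adjusted p = 0.0114 and 0.0157).

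**Figure D4:**
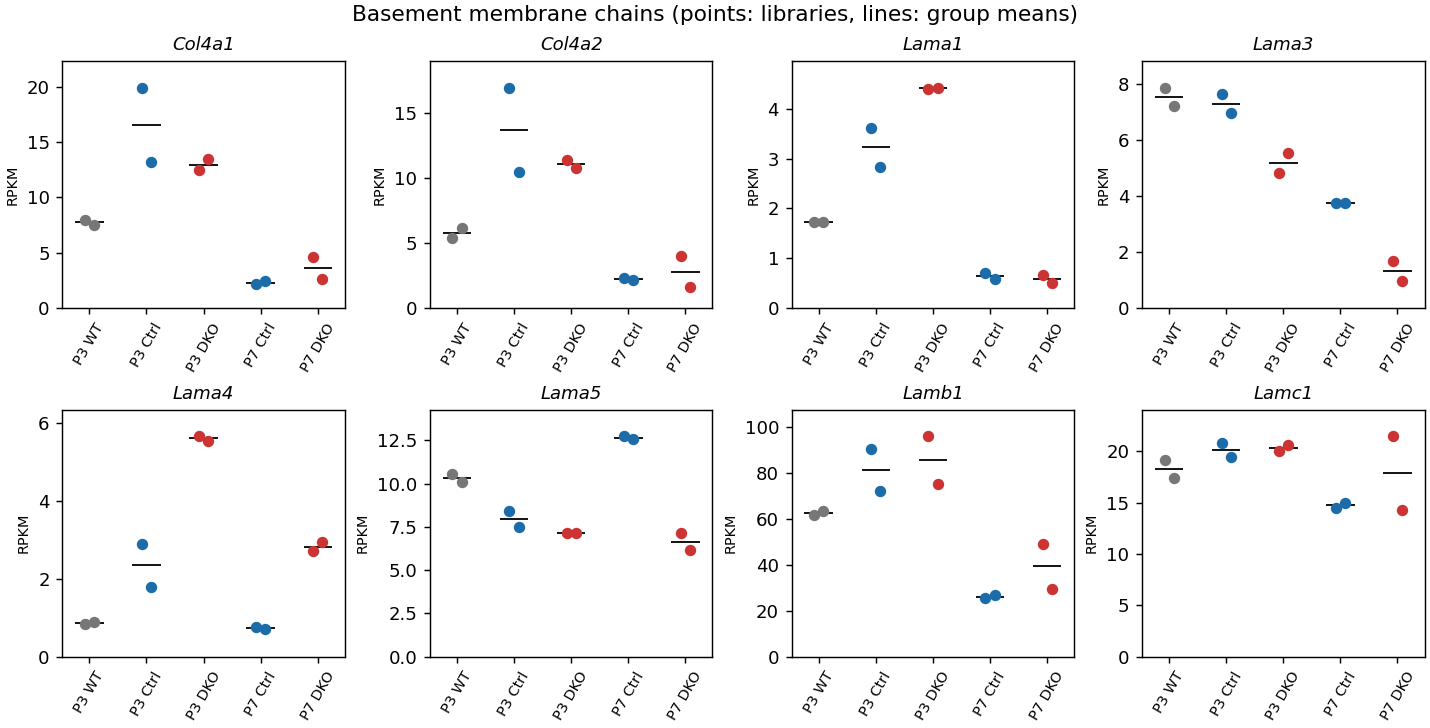
Points give the RPKM of 8 basement membrane chains in each library of 5 groups and lines the group means, with axes from 0. Col4a1, Col4a2, Lama1, Lama3, Lama4 and Lamb1 are lower in P7 Ctrl than in P3 Ctrl, Lama5 is higher, and Lamc1 varies least.

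Among other collagens, Col6a2 fell from 11.4 and 7.19 to 2.31 and 2.57 RPKM (log2 change -1.55 ± 0.21, adjusted p = 0.00247), and the fibril collagen Col11a1 from 3.03 and 1.18 to 0.238 and 0.164 (-1.30 ± 0.32, adjusted p = 0.0195). Col6a5 fell from 2.67 and 1.35 to 0.231 and 0.227 RPKM (adjusted p = 0.0251). Col13a1 was the only collagen that rose, from 13.9 and 11.3 to 25.9 and 26.9 RPKM (1.02 ± 0.33, adjusted p = 0.048). This call held in 3 of 11 alternatives, with an adjusted p of 0.0522 without the Sertoli-rich pair and up to 0.179 when a library was left out. Of the receptors, the fibronectin receptor subunit Itga5 fell from 4.37 and 3.78 to 1.2 and 1.16 RPKM (-1.21 ± 0.23, adjusted p = 0.00792) and the alpha v partner Itgb3 from 15.4 and 11.9 to 4.92 and 5.22 (-1.26 ± 0.28, adjusted p = 0.0142). Itgb1 fell by less, from 107 and 93.8 to 77.6 and 75.8 RPKM (-0.38 ± 0.12, adjusted p = 0.0468), and Itgb2, the leukocyte beta subunit, from 2.54 and 1.75 to 0.584 and 0.436 (adjusted p = 0.0257). Itga6 stood at 26.7 and 30.6 RPKM in P3 Ctrl and at 37.6 and 38.3 in P7 Ctrl and missed the threshold (0.40 ± 0.23, adjusted p = 0.227).

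Sums of 3 marker lists were lower at P7 and that of Sertoli cells higher. Between P3 Ctrl and P7 Ctrl, 10 endothelial markers went from sums of 68.7 and 62.8 RPKM to 32.96 and 37.8, 12 leukocyte markers from 76.2 and 53.6 to 21.7 and 21.6 and the stromal list from 27.4 and 17.0 to 12.8 and 12.6. The Sertoli list went from 226 and 209 to 314 and 339.7 RPKM. With the libraries of the 2 ages apart, 8 of 10 endothelial markers were lower and 1 higher, 11 of 15 stromal markers lower and 2 higher, and 6 of 12 leukocyte markers lower and 2 higher. The endothelial marker Pecam1 stood at 17.4 and 7.95 RPKM in P3 Ctrl and at 1.53 and 1.61 in P7 Ctrl, Kdr went the other way, from 1.68 and 1.98 to 3.66 and 3.76, and the leukocyte marker Ptprc was below 0.2 RPKM in all 4 libraries. The part of these cells in the falls was not tested. Leaving out P3 Ctrl replicate 1, P7 Ctrl replicate 1 or P7 Ctrl replicate 2 left 7, 6 and 5 called members. Col4a1, Col4a2, Col6a2, Lama1 and Lamb1 kept their call under every alternative run, and quantile normalization gave 13 falls and 3 rises. After that normalization 20.4% of all tested genes were called in either direction.

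None of the followers, whose rule used the P3 Ctrl values as a ceiling, passed with all 14 libraries. The rule also chose genes whose replicates differ within both single knockouts, which widens their SE in the fit of all 14 libraries. Passing only without the pair thus follows in part from that choice. Without the pair, Col1a1 rose with age (log2 change 1.06 ± 0.20, adjusted p = 0.00643), and Col1a2 (-0.77 ± 0.17, adjusted p = 0.0114), Col3a1 (-0.52 ± 0.14, adjusted p = 0.0269) and Col6a1 (-1.04 ± 0.22, adjusted p = 0.0102) fell. In that fit 31 members fell and 3 rose, where 20.4% and 14.8% of all tested genes did. In that fit the type I chains thus moved in opposite directions with age.

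The comparison of P3 DKO with P3 Ctrl asks what loss of the remaining copies of both genes changed at day 3. The laminin chain Lama4 and the collagens Col5a3, Col24a1, Col6a4 and Col16a1 rose by 0.84 to 1.31 on the log2 scale, and the integrin subunit Itga3 fell. The background was 2.18% higher and 2.29% lower among all tested genes. Of the 60 members, 5 rose and 1 fell. At an unadjusted p under 0.05 were 25 of the 60, a larger share than the 24.5% of all tested genes. No other laminin and no beta subunit passed.

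Col5a3, a fibril collagen of type V (chromosome 9, 20770050 to 20815067), stood at 1.68 and 0.698 RPKM in P3 Ctrl and at 4.44 and 4.13 in P3 DKO (log2 change 1.31 ± 0.20, adjusted p = 0.0183). Col6a4, a type VI chain (chromosome 9, 105989454 to 106096783), stood at 3.17 and 2.42 RPKM in P3 Ctrl and at 5.40 and 6.19 in P3 DKO (0.85 ± 0.15, adjusted p = 0.0236). Both groups were apart for both genes, although the P3 Ctrl replicates of Col5a3 differed more than those of Col6a4. Lama4 (chromosome 10, 38965515 to 39110188) rose from 2.90 and 1.80 to 5.67 and 5.56 RPKM (1.0 ± 0.21, adjusted p = 0.0356), Col24a1 from 0.684 and 0.233 to 1.84 and 1.44 (0.87 ± 0.19, adjusted p = 0.0373) and Col16a1 from 0.750 and 0.416 to 2.02 and 1.63 (0.84 ± 0.18, adjusted p = 0.0348). Itga3, a laminin receptor subunit (chromosome 11, 95044474 to 95076801), fell from 13.7 and 15.2 to 7.25 and 9.68 RPKM (-0.72 ± 0.17, adjusted p = 0.0457). It was the only called member above 10 RPKM, and its 4 values do not overlap between the groups.

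The rises were in genes of low level, and most low genes of any kind had higher values in P3 DKO. Of the 40 members with a mean below 5 RPKM, 37 had a positive log2 change, with a median of 0.44, and of all 5297 tested genes at that level 76.0% had one, with a median of 0.25. At 5 RPKM or more, 9 of 20 members had a positive log2 change, with a median of -0.16, against 37.2% and a median of -0.09 for all genes. P3 DKO also had the deepest libraries, and the stromal list summed to 35.8 and 35.1 RPKM in P3 DKO against 27.4 and 17.0 in P3 Ctrl. The smooth muscle gene Des stood at 8.18 and 8.44 RPKM in P3 DKO and at 5.26 and 2.83 in P3 Ctrl, and Acta2 at 2.54 and 3.26 and at 1.499 and 0.966. Their part in these rises was not tested.

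These calls rest on few libraries. Leaving out P3 Ctrl replicate 1 kept Col5a3 and Col6a4, leaving out P3 Ctrl replicate 2 or either P3 DKO library kept none, and a fit of the 4 libraries alone called no member. Quantile normalization gave 3 rises and 2 falls, where 3.05% of all tested genes were called in either direction. Without the Sertoli-rich pair 12 members rose and 3 fell, where 7.4% and 5.67% of all tested genes did. The added rises include the followers Col1a2 (1.03 ± 0.17, adjusted p = 0.0135) and Col3a1 (0.80 ± 0.14, adjusted p = 0.0167). The follower rule used the P3 DKO and P3 Ctrl values as a ceiling, so these calls are not independent of that choice. It also chose genes whose replicates differ within both single knockouts, which widens their SE in the fit of all 14 libraries. The added rises also include Lama2, which was under 1 RPKM in all of these 12 libraries: 4 of the 60 members (Col15a1, Col4a5, Lama2 and Lamc3) passed the filter only through the pair. Col18a1 (26.6 and 21.1 RPKM in P3 Ctrl and 10.7 and 14.8 in P3 DKO) and Itgb2 were added to the falls (-0.86 ± 0.17, adjusted p = 0.0202 and -0.82 ± 0.17, adjusted p = 0.0253).

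Col13a1 was lower without overlap, at 13.9 and 11.3 RPKM in P3 Ctrl and 4.71 and 7.79 in P3 DKO, but missed the threshold (-0.93 ± 0.33, adjusted p = 0.118). The most abundant receptors and the main basement membrane chains did not pass at P3. Itga6 stood at 26.7 and 30.6 RPKM in P3 Ctrl and 18.7 and 23.3 in P3 DKO (log2 change -0.43 ± 0.23, 95% interval -0.95 to 0.08). Itgb1 had a log2 change of -0.23 ± 0.12 (interval -0.50 to 0.04) and Lamb1 of 0.07 ± 0.24 (interval -0.46 to 0.60). Itgb5 stood at 41.9 and 58.1 RPKM in P3 Ctrl and at 25.1 and 24.9 in P3 DKO, and missed the threshold (-0.95 ± 0.36, adjusted p = 0.139), although the groups do not overlap.

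The comparison of P7 DKO with P7 Ctrl asks the same at day 7. Here 14 members fell and 3 rose, against 16.1% lower and 17.4% higher among all tested genes, so the share that fell was 23.3% of the members and the share that rose 5.0%. Collagens gave 7 falls and no rise, laminins 3 falls and 1 rise, alpha subunits 3 falls and 2 rises and beta subunits 1 fall. The median log2 change was -0.21 over the members and 0.02 over all tested genes.

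Col18a1 (chromosome 10, 77052178 to 77166548) stood at 19.7 and 21.5 RPKM in P7 Ctrl and at 3.63 and 3.51 in P7 DKO (log2 change -2.24 ± 0.35, adjusted p = 0.00113). Col6a4 stood at 3.45 and 3.62 RPKM in P7 Ctrl and at 0.204 and 0.184 in P7 DKO, a log2 change of -1.92 ± 0.15 with the smallest adjusted p of the members (3.34e-05). Col17a1, the collagen of hemidesmosomes, fell from 5.42 and 5.46 to 1.10 and 1.01 RPKM (-1.65 ± 0.31, adjusted p = 0.00292). In each of these genes the P7 DKO libraries were close together and far below P7 Ctrl. Col13a1 (chromosome 10, 61838236 to 61979108) fell from 25.9 and 26.9 to 12.6 and 5.23 RPKM (-1.57 ± 0.33, adjusted p = 0.0051), Col6a2 from 2.31 and 2.57 to 0.589 and 0.366 (-1.22 ± 0.21, adjusted p = 0.00186) and Col22a1, found at tissue junctions, from 5.34 and 4.91 to 2.03 and 1.69 (-1.10 ± 0.19, adjusted p = 0.00178). Col1a1 fell from 14.1 and 14.3 to 5.10 and 2.83 RPKM (-1.65 ± 0.48, adjusted p = 0.0255). Its call ended on leaving out either P7 Ctrl library or P7 DKO replicate 2, with a highest adjusted p of 0.153, and without the Sertoli-rich pair it was -1.65 ± 0.20, adjusted p = 0.000653. Col1a2 did not exceed 0.379 RPKM in any P7 library. Without the Sertoli-rich pair 17 members fell and 3 rose, where 19.0% and 20.9% of all tested genes did.

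Itga3 fell from 13.96 and 14.3 to 4.05 and 3.87 RPKM (log2 change -1.61 ± 0.17, adjusted p = 0.000158), the largest integrin fall on the log2(RPKM + 1) scale. Of the laminins that its product binds, Lama3 fell from 3.76 and 3.74 to 1.67 and 0.977 RPKM (-1.05 ± 0.17, adjusted p = 0.00146) and Lama5 from 12.7 and 12.6 to 7.13 and 6.14 (-0.84 ± 0.11, adjusted p = 0.000507). Lamb2, the beta chain of mature basement membranes, fell from 5.93 and 5.93 to 2.23 and 3.10 RPKM (-0.93 ± 0.27, adjusted p = 0.0264). The receptor subunits Itga9, Itga1 and Itgb4 also fell, from 1.04 and 1.17 to 0.229 and 0.184, from 2.79 and 2.49 to 1.57 and 1.15 and from 1.06 and 1.16 to 0.357 and 0.459 RPKM (adjusted p = 0.00856, 0.0145 and 0.0297). The groups do not overlap in any of these genes.

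The 3 rises were in Lama4 and 2 alpha subunits. Lama4 stood at 0.762 and 0.719 RPKM in P7 Ctrl and at 2.71 and 2.94 in P7 DKO (log2 change 1.14 ± 0.21, adjusted p = 0.00321). Itga5 (chromosome 15, 103344286 to 103366763) rose from 1.2 and 1.16 to 3.04 and 4.16 RPKM (1.06 ± 0.23, adjusted p = 0.00644) and the laminin receptor subunit Itga7 from 6.27 and 6.14 to 16.9 and 11.2 (1.04 ± 0.20, adjusted p = 0.00324). Lama4 and Itga5 were among the genes that fell with age in the controls, so the P7 DKO libraries lay nearer to P3 Ctrl. Both comparisons use the same P7 Ctrl libraries. Col6a2 and Lama3 fell with age and fell further in P7 DKO, away from P3 Ctrl. The call of Itga5 ended without P7 DKO replicate 2 (adjusted p = 0.0501). Of the 17 called members, Col17a1, Col18a1, Col22a1, Col6a2, Col6a4, Itga3, Itga7, Lama3, Lama4 and Lama5 kept their call under every alternative run.

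P7 DKO replicates were far apart in several abundant members that did not pass. Itga6 stood at 42.4 and 23.3 RPKM against 37.6 and 38.3 in P7 Ctrl (adjusted p = 0.426). Itgb5 stood at 38.5 and 15 RPKM against 40.6 and 41.4, and Lamb1 at 49.1 and 29.6 against 25.5 and 26.7 (adjusted p = 0.142 and 0.117). For Itga6, replicate 1 lay above P7 Ctrl and replicate 2 below it. The P7 DKO libraries held 89.7 and 84.3 RPKM of Itgb1 and those of P7 Ctrl 77.6 and 75.8 (log2 change 0.18 ± 0.12, 95% interval -0.09 to 0.45). The endothelial list summed to 18.3 and 16.8 RPKM in P7 DKO against 32.96 and 37.8 in P7 Ctrl, the stromal list to 5.59 and 6.74 against 12.8 and 12.6 and the leukocyte list to 10.7 and 4.73 against 21.7 and 21.6. With the libraries apart, 8 of 10 endothelial markers were lower and none higher, 5 of 15 stromal markers lower and 3 higher, and 3 of 12 leukocyte markers lower and 2 higher. Ptprc stood at 0.935 and 0.454 RPKM in P7 DKO against 0.135 and 0.0582 in P7 Ctrl, and Fcer1g at 2.98 and 1.55 against 15.1 and 14.5. The Sertoli list summed to 242 and 386 RPKM against 314 and 339.7. The endothelial gene Cdh5 stood at 0.390 and 0.0440 RPKM against 2.82 and 2.73, and 1 of 10 endothelial markers reached 1 RPKM in each P7 DKO library. The part of these cells in the falls was not tested.

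Whether the DKO change at P7 differed from that at P3 was tested as an interaction in the same fit, and 15 members passed. It was negative for 14 and positive for Itga5, against 10.7% and 12.2% of all tested genes. Below a mean of 5 RPKM it was negative for 9 of 40 members and positive for 1, against 12.7% and 3.36% of all tested genes at that level. At 5 RPKM or more it was negative for 5 of 20 members and positive for 0, against 9.60% and 17.1%. The largest differences were those of Col6a4, Col17a1 and Col6a2. The DKO change of Col6a4 was 0.85 ± 0.15 at P3 and -1.92 ± 0.15 at P7 (difference -2.77 ± 0.21, adjusted p = 0.000156). For Col6a2 the changes were 0.72 ± 0.21 and -1.22 ± 0.21 (difference -1.94 ± 0.29, adjusted p = 0.00239), and the P3 change alone did not pass. Col6a4 was the only member called in both comparisons with opposite signs. Lama4 was called in both with the same sign, and the difference of its changes, 0.14 ± 0.30, did not pass (adjusted p = 0.782). Itga3 fell at both ages, by more at P7 (difference -0.89 ± 0.24, adjusted p = 0.0257). Leaving out either P7 Ctrl library, P3 Ctrl replicate 2 or P3 DKO replicate 2 left 7 to 9 called members, and without the Sertoli-rich pair there were 26, where 15.6% of all tested genes were lower and 15.9% higher. Col17a1, Col22a1, Col24a1, Col5a3, Col6a2 and Col6a4 kept their call under every alternative run.

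**Figure D5:**
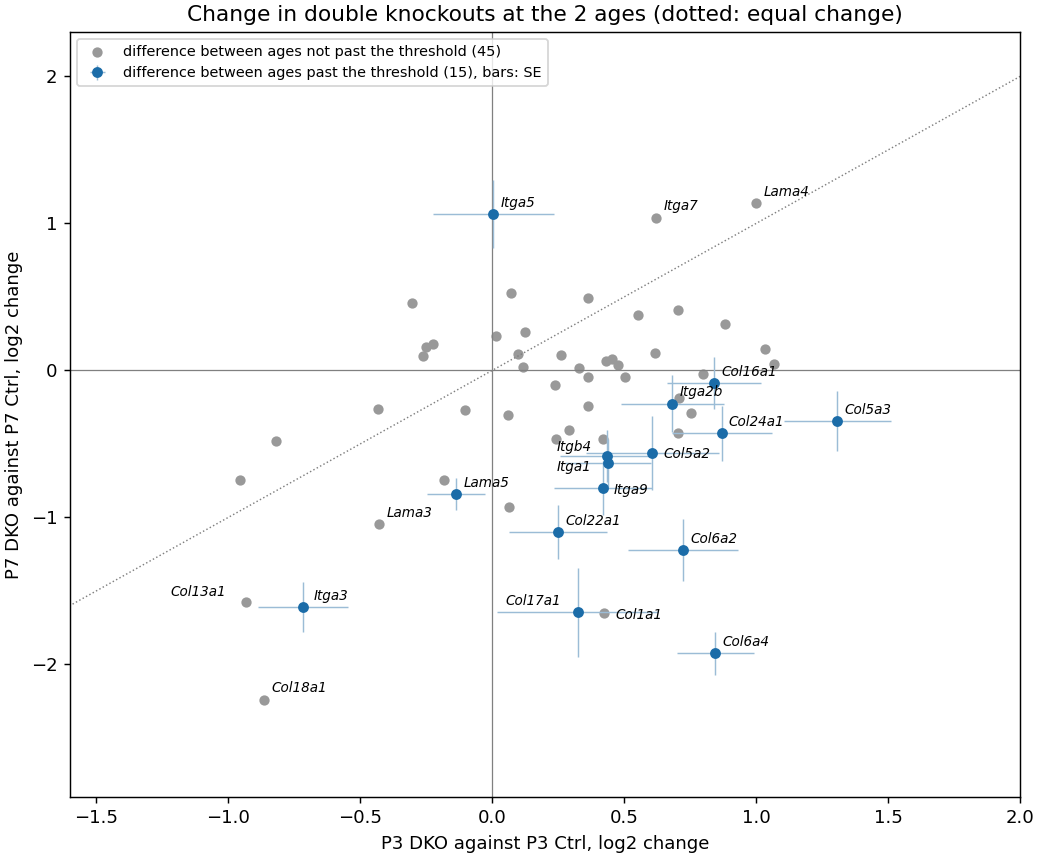
Each point is a tested member, with the log2 change of P3 DKO against P3 Ctrl on the horizontal axis and of P7 DKO against P7 Ctrl on the vertical axis. Blue points with SE bars mark the 15 members whose changes differed between the ages, and 14 of these lie below the dotted line of equal change.

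Neither single knockout gave a called member. Against P3 Ctrl, limma called 0 of 60 in P3 Jmjd1aKO, with 15 at an unadjusted p under 0.05, and 0 in P3 Jmjd1bKO, with 3. Of all tested genes, 1484 and 268 of 14772 were at such a p. Among all tested genes 0.0338% and 0.0203% passed in either direction. Col5a3, which rose in P3 DKO, stood at 3.37 and 3.01 RPKM in P3 Jmjd1aKO and 1.68 and 1.29 in P3 Jmjd1bKO, against 1.68 and 0.698 in P3 Ctrl. Its log2 change in P3 Jmjd1aKO was 0.97 ± 0.20 (adjusted p = 0.234), with both libraries above P3 Ctrl. Itga3 stood at 10.7 and 9.87 RPKM in P3 Jmjd1aKO, below both P3 Ctrl libraries, and at 14.03 and 10.6 in P3 Jmjd1bKO, where the groups overlap. Without the Sertoli-rich pair each of these groups is 1 library, and limma again called 0 members, with 16 and 0 at an unadjusted p under 0.05, where 0.0677% and 0.0474% of all tested genes passed.

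P3 Ctrl against P3 WT compares Cre carriers lacking 1 copy of each gene with wild type. Only Col6a2 rose, from 2.84 and 3.19 to 11.4 and 7.19 RPKM (log2 change 1.33 ± 0.21, adjusted p = 0.0352), where 0.406% of all tested genes were higher and 0.298% lower. The call ended on leaving out P3 Ctrl replicate 1 or either P3 WT library, and without P3 Ctrl replicate 2 there were 3 calls. Without the Sertoli-rich pair 11 members rose and none fell, against 9.25% and 5.64% of all tested genes. The added rises include Col4a2 (1.09 ± 0.30, adjusted p = 0.049), Col4a1 (0.98 ± 0.24, adjusted p = 0.0357), Col8a2, Itgal, Lama4, Col18a1, Lama1, Itgb4 and Itga2. Depth differed most here, with 13.4 and 14.9 M fragments in P3 WT against 38.2 and 43.0 M in P3 Ctrl, and the endothelial list summed to 39.2 and 42.8 against 68.7 and 62.8 RPKM. The stromal list summed to 10.4 and 10.96 against 27.4 and 17.0, the leukocyte list to 36.7 and 39.1 against 76.2 and 53.6 and the Sertoli list, the other way, to 288 and 347 against 226 and 209. With the libraries apart, 9 of 10 endothelial markers were higher in P3 Ctrl and none lower, and 10 of 15 stromal markers higher and 1 lower. Of 12 leukocyte markers, 4 were higher and 6 lower, so more went against the sum than with it. Fcer1g, which is large in that sum, stood at 25.2 and 29.8 RPKM in P3 WT and at 62.2 and 44.5 in P3 Ctrl. Of 20 Sertoli markers, 3 were higher and 14 lower. The part of depth and of these cells in the rises was not tested.

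Other genes of the matrix pathway were counted in the same fit. The background is that given above for each comparison: 13.4% lower and 9.94% higher with age, 16.1% and 17.4% in P7 DKO, 2.29% and 2.18% in P3 DKO. Without the Sertoli-rich pair, 15 of the 30 enzymes fell and 1 rose with age, where 20.4% and 14.8% of all tested genes did. In P7 DKO 8 rose and 1 fell without the pair, where 20.9% and 19.0% of all tested genes did. With age, 11 of 30 tested collagen processing enzymes fell and 1 rose, with a median log2 change of -0.50 against -0.01 over all tested genes. The falls include Bmp1, the procollagen C-proteinase, from 5.76 ± 2.04 to 1.004 ± 0.167 RPKM (-1.72 ± 0.21, adjusted p = 0.00212), the procollagen C-proteinase enhancer Pcolce2 (-1.41 ± 0.29, adjusted p = 0.01) and the transglutaminase Tgm2 (-1.32 ± 0.24, adjusted p = 0.00728). The chaperone subunit P4hb, the most abundant of them, rose from 246 ± 36.3 to 311 ± 5.94 RPKM (0.35 ± 0.11, adjusted p = 0.0479). In P7 DKO 6 of the enzymes rose and 1, P4hb, fell, with a median of 0.12. The share that rose, 6 of 30, was near the 17.4% of all tested genes. P3h3, a prolyl hydroxylase, rose from 2.19 ± 0.133 to 13.4 ± 2.41 RPKM (2.16 ± 0.50, adjusted p = 0.00917), as did the lysyl oxidase Loxl2 (1.45 ± 0.38, adjusted p = 0.0165). In P3 DKO Lox rose from 0.174 ± 0.0366 to 1.41 ± 0.295 RPKM (1.03 ± 0.16, adjusted p = 0.0169) and the isomerase Ppib fell from 118 ± 10.9 to 85.6 ± 4.43 RPKM (-0.46 ± 0.08, adjusted p = 0.0236).

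Among 17 other basement membrane proteins, 4 fell and 2 rose with age, and 3 fell and 2 rose in P7 DKO. None passed in P3 DKO (limma, adjusted p = 0.773 for Nid1 and 0.991 for Nid2). The share that fell with age was above the 13.4% of all tested genes, and the share that rose was near their 9.94%. In P7 DKO the shares were near or below the 16.1% and 17.4% of all tested genes. Without the pair 2 rose and 1 fell in P3 DKO, where 7.4% and 5.67% of all tested genes did. Nid1, which links laminin to type IV collagen, fell in P7 DKO from 42.9 ± 0.204 to 3.93 ± 2.03 RPKM (-3.22 ± 0.32, adjusted p = 0.00011). Agrn, a heparan sulphate proteoglycan, rose from 8.56 ± 0.398 to 12.4 ± 0.428 RPKM (0.49 ± 0.12, adjusted p = 0.012). With age the calcium-binding Smoc2 rose from 26.3 ± 6.70 to 69.2 ± 0.800 RPKM (1.39 ± 0.33, adjusted p = 0.0173) while the nephronectin gene Npnt, a ligand of alpha 8 integrin, fell from 4.29 ± 1.31 to 1.03 ± 0.246 RPKM (-1.36 ± 0.34, adjusted p = 0.0216).

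Of 29 genes of the integrin adhesion machinery, which ties integrins to actin, 8 fell and 3 rose in P7 DKO, where 16.1% and 17.4% of all tested genes did. The counts were 8 and 3 without the pair, where 19.0% and 20.9% of all tested genes did. Kank2 fell from 23.95 ± 0.846 to 6.03 ± 0.490 RPKM (-1.83 ± 0.25, adjusted p = 0.000552), the tensin Tns2 from 6.27 ± 0.188 to 1.83 ± 0.477 RPKM (-1.37 ± 0.26, adjusted p = 0.00309) and the filamin Flna from 29.5 ± 0.954 to 11.1 ± 0.866 RPKM (-1.33 ± 0.45, adjusted p = 0.0456). Src, the kinase, rose from 15.1 ± 0.667 to 27.6 ± 6.37 RPKM (0.81 ± 0.19, adjusted p = 0.00878). In P3 DKO, Pxn and Ptk2, the paxillin and focal adhesion kinase genes, fell (-0.72 ± 0.14, adjusted p = 0.0317 and -0.33 ± 0.08, adjusted p = 0.0456) and none rose. With age 5 fell and 1 rose, the falls including Ptk2b (-2.32 ± 0.49, adjusted p = 0.0117).

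Among 8 tested other matrix receptors, Sdc4, a heparan sulphate coreceptor, fell from 259 ± 4.51 to 56.6 ± 1.93 RPKM in P7 DKO (-2.17 ± 0.15, adjusted p = 2.18e-05) and from 280.1 ± 20.9 to 165 ± 39.3 RPKM in P3 DKO (-0.78 ± 0.15, adjusted p = 0.0317). Dag1, the dystroglycan that binds laminin, fell in P7 DKO from 100.4 ± 4.45 to 60.7 ± 9.88 RPKM (-0.73 ± 0.11, adjusted p = 0.00126), and Sdc1 rose (0.78 ± 0.13, adjusted p = 0.00145). In P3 DKO Sdc1 went the other way, from 16.1 ± 2.76 to 10.8 ± 0.973 RPKM (limma, -0.53 ± 0.13, adjusted p = 0.0466). With age Sdc3 alone fell, from 16.3 ± 6.01 to 0.550 ± 0.0808 RPKM (-3.43 ± 0.49, adjusted p = 0.00321). Of 13 tested other integrin ligands, Spp1, osteopontin, rose in P7 DKO from 2.55 ± 0.543 to 20.02 ± 11.9 RPKM (2.45 ± 0.64, adjusted p = 0.0159), with replicates far apart. Postn, which is also on the stromal list, rose in P3 DKO from 1.17 ± 0.179 to 2.84 ± 0.198 RPKM (0.82 ± 0.19, adjusted p = 0.0445). It fell in P7 DKO, from 0.899 ± 0.0397 to 0.265 ± 0.133 RPKM (limma, -0.59 ± 0.19, adjusted p = 0.0393). The difference between the ages was -1.41 ± 0.27 (interaction, adjusted p = 0.00645). Among 21 proteases and inhibitors, 7 fell with age and none rose. Mmp2, a gelatinase that cleaves type IV collagen, rose in P3 DKO from 11.8 ± 3.14 to 28.3 ± 1.33 RPKM (1.21 ± 0.19, adjusted p = 0.0194) and fell in P7 DKO from 2.68 ± 0.0390 to 0.981 ± 0.184 RPKM (-0.89 ± 0.19, adjusted p = 0.00657). The gelatinase Mmp9 fell with age from 88.0 ± 29.5 to 23.0 ± 0.628 RPKM (-1.85 ± 0.45, adjusted p = 0.0186) and in P7 DKO from 23.0 ± 0.628 to 1.88 ± 1.17 RPKM (-3.13 ± 0.45, adjusted p = 0.000789).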

How the data were processed

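Polyadenylated RNA of 14 testis germ cell libraries in 7 groups of 2 was sequenced with a stranded kit, per the labels' protocols. The deposited values are RPKM, which the authors made with TopHat2 2.1.1 and Cufflinks 2.1.1 on mm10, per the submitters' processing notes. Whether counting used the strand is not given in the sources used here, so overlapping genes such as Col4a1 and Col4a2 are uncertain. RPKM carries no depth, and depth was estimated from the steps between values of genes with 1 transcript: 71.0 to 80.7% of the genes used came within 0.2 of whole fragments (40.0% by chance). This is below what a count test needs, and none was run.

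Here, 14772 of 24340 genes at 1 RPKM or more in at least 2 libraries were tested on log2(RPKM + 1), and 9568 were left out. In limma 3.58.1 (R 4.3.3), 1 coefficient per group was fitted over the 14 libraries with 7 residual degrees of freedom and trended empirical Bayes moderation. Tests were two-sided, with Benjamini-Hochberg adjustment over all tested genes and a threshold of 0.05. A ± beside a log2 change is the SE, and beside a mean the SD with n = 2. Log2 changes had a median SE of 0.19. The fit was tested on simulated data. Gene positions are from GENCODE M21 (GRCm38) and promoter windows from RefSeq (GRCm38.p6). Genes were named where they passed the threshold, by size of change, with the most abundant members beside them, and of the other pathway lists up to 3 in each direction. Members, lists and markers were chosen with earlier results of these data known. The values of 1 member are not reported here, and it is counted in all totals. Alternatives were a pseudocount of 0.1, no filter, quantile normalization, median-centring, a replicate block, only the libraries of the groups compared, and leaving out each library or the Sertoli-rich pair.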

Additional observations from a re-analysis of the deposited data

Results flagged for a closer look

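For 15 members the log2 change between DKO and Ctrl differed between the ages by the interaction test. The difference, P7 minus P3, was largest for the type VI chains Col6a4 (-2.77) and Col6a2 (-1.94) and for Col17a1 (-1.97). Of the other collagens it was -1.65 for Col5a3, -1.35 for Col22a1, -1.30 for Col24a1, -1.17 for Col5a2 and -0.93 for Col16a1. The type V chains Col5a2 and Col5a3 had DKO changes of 0.61 ± 0.25 and 1.31 ± 0.20 at P3 and of -0.56 ± 0.25 and -0.34 ± 0.20 at P7. Among alpha subunits it was -1.22 for Itga9, -1.07 for Itga1, -0.91 for Itga2b and -0.89 for Itga3. It was -1.02 for Itgb4 and -0.70 for Lama5. Itga5 alone was positive, at 1.06: its DKO change was 0.00 ± 0.23 at P3 and 1.06 ± 0.23 at P7.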

How the results depend on the processing

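No called member changed sign under the alternatives run. Of the 6 members called in P3 DKO, a pseudocount of 0.1 left 2, no filter gave 13, leaving out the Sertoli-rich pair gave 15 and a fit of its own libraries alone gave 0. Of all tested genes, 4.47% were called in the main fit. Under these alternatives, in the same order, it was 2.47%, 7.12%, 13.1% and 0.115%. The 17 called in P7 DKO became 27 with a pseudocount of 0.1 and 27 with its own libraries alone. The share of all tested genes went from 33.5% to 35.4% and 34.8%. The 15 with a difference between ages became 8 after quantile normalization, 26 without the pair and 25 with the libraries compared alone. For this difference the share of all tested genes went from 22.9% to 16.6%, 31.5% and 28.4%. P3 Ctrl against P3 WT, with 1 call, gave 11 without the pair and 0 with its own libraries alone. There the share of all tested genes went from 0.704% to 14.9% and 0.135%. With a minimum difference of 0.5 in place of 1, 10 members followed the pair, and with 2, 2 did. Leaving out 1 library at a time gave 0 to 2 calls in P3 DKO, 12 to 19 in P7 DKO, 5 to 23 with age, 0 to 3 in P3 Ctrl against P3 WT, 7 to 14 for the difference between ages and 0 in each single knockout. A group left with 1 library is assumed to vary like the others. Single named members kept their side of the threshold in 564 of 743 repeats and lost it in 179. The cause was not tested.

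Replicate numbers were not taken as pairs, since no label ties them and the correlation of replicate differences, -0.130 to 0.581, was above 0.1 for some groups (0.134 for P3 Ctrl with P3 DKO) and not for others (0.00484 for the P7 groups). With the replicate number as a block, 7 members were called in P3 DKO, 20 in P7 DKO, 28 with age, 19 for the difference between ages and 4 in P3 Ctrl against P3 WT. Calls over all genes rose too, from 33.5% to 38.3% of those tested in P7 DKO and from 23.3% to 30.8% with age. For the difference between ages they rose from 22.9% to 28.2%. They went from 661 to 1140 in P3 DKO and from 104 to 776 in P3 Ctrl against P3 WT. With the numbers of P3 WT crossed, a pairing chosen after seeing the data, the last was 4 as well. At 13.4 to 49.5 M fragments, depth limits the members below 1 RPKM most.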
